A study of Mus musculus with 30 samples.

Results

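Macrophages and their blood precursors, the monocytes, were followed through 31 genes that mark or serve these cells, out of 46078 genes counted in mouse colon. The genes were taken from a list by symbol, and 31 of 31 were found in the deposited tables. They were grouped by role. Spi1 and Csf1r were the lineage factor and growth factor receptor. Cd163, Mrc1, Mertk, Timd4, Folr2, Stab1 and Cx3cr1 were the 7 resident-type genes, and Ccr2, Cd14, Itgam and Lyz2 the 4 monocyte-type genes. Adgre1, Cd68, Ctss, Mpeg1, Laptm5 and Aif1 were the 6 pan-macrophage genes. Fcgr1, Fcgr3, Fcgr2b, Fcer1g and Tyrobp were the 5 Fc receptor and adaptor genes, Cd86 and Itgax stood for antigen presentation and the dendritic integrin, and Msr1, Trem2, Gpnmb, Spp1 and Lgals3 were the 5 scavenger and lipid-associated genes.

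Colon RNA was sequenced from C57BL/6J mice in 5 groups of 6 libraries: CD females (CD F), CD males (CD M), HFD females (HFD F), HFD males (HFD M) and HFD males given 17β-estradiol (HFD+E2 M). The control diet (CD) took 10% and the high-fat diet (HFD) 60% of its energy from fat, feeding began at 5 to 6 weeks of age and lasted 13 weeks, and every animal received 9 injections in the last 3 weeks, of vehicle in the first 4 groups and of E2 (0.5 mg/kg) in the other. The females were intact and their estrous cycle was not followed. The comparisons ask how sex, diet and estrogen relate to the macrophage content of the colon, which the study also approached by staining F4/80, the protein that Adgre1 encodes.

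The gut wall holds a large macrophage population. Monocytes leave the blood by way of the chemokine receptor CCR2, lose monocyte markers in the mucosa and mature into resident cells that take up dying cells and bacteria, while long-lived macrophages that carry TIM-4 and CD163 sit deeper, near vessels, nerves and muscle. Survival of the lineage depends on the CSF1 receptor, and its identity on the transcription factor PU.1, the product of Spi1. In whole tissue, fewer cells of a type and less RNA per cell cannot be told apart, and several of the genes are also used by other cells, such as Lgals3 by the epithelium and Itgam by granulocytes.

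Counts on genes ranged from 8667177 to 17243712 per library (median 11530916), of which the 31 genes together held 9001 to 21526 counts, or from 0.0816% to 0.125%. Mitochondrial genes took from 26.1% to 38.0%. In 6 libraries, HFD F 1, 3, 4 and 5 and HFD M 2 and 4, the 13 squamous epithelium genes summed to between 118 and 1431 TPM, against 11.4 TPM at most in the other libraries. These libraries stand apart, and the main values that involve them are also given without them. The summed level of smooth muscle genes differed between groups as well and is given beside the results of the 31 genes it moved with. Csf1r, Mertk, Stab1 and Cx3cr1 overlap other genes in the annotation, and whether reads were counted by strand was not given in the sources used here.

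PU.1 binds short purine-rich sites with the core GAGGAA. The promoters of the 3 genes whose response to HFD differed between the sexes at the threshold of the study (Itgam, Trem2 and Gpnmb, below) are shown from 250 bases before to 50 bases after the start of the RefSeq transcript (GRCm38.p6), all on the plus strand, at chr7:128062390-128062689, chr17:48346151-48346450 and chr6:49036268-49036567 in that order. Capitals mark GAGGAA or its reverse complement TTCCTC.
Itgam: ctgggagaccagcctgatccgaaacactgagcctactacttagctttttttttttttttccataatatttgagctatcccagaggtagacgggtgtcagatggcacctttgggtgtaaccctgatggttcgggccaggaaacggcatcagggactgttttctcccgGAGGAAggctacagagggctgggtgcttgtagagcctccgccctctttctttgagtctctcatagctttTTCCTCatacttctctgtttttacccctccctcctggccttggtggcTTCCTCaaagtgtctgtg
Trem2: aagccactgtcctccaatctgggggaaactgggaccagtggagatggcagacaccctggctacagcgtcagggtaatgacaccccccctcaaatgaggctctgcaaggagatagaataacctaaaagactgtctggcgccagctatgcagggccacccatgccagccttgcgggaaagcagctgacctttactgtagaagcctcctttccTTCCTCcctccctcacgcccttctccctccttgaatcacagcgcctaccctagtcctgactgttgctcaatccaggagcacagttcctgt
Gpnmb: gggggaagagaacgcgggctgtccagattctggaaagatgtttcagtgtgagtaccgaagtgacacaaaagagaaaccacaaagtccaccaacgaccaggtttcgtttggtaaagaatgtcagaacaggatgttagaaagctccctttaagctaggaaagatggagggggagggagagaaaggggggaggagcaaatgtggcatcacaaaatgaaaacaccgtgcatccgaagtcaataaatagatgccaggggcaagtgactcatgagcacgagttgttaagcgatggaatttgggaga
The Itgam window held 3 such cores, starting at -84, -15 and 33 relative to the transcript start, the Trem2 window held 1, at -40, and the Gpnmb window none. RefSeq promoters were found for 24 of the 31 genes. Of these 24, 11 (45.8%) held the core on either strand in at least 1 promoter, beside 31.3% of the 27025 genes with a promoter in the table. The longer site GAGGAAGT, which contains the core, was present in 2 of the 24 genes (8.33%), Ctss and Spp1, beside 3.69% of all genes. A match is a run of letters in this window and was not tested for binding, and its absence says nothing of the factor elsewhere.

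The level of the genes spanned more than 3 orders of magnitude. In TPM, which is scaled to gene length, 3 genes had a mean over 50 in the 30 libraries, 11 lay from 5 to 50, 13 from 1 to 5 and 4 under 1. The most abundant was Lgals3, which encodes the sugar-binding galectin-3, with a group mean between 433 TPM in CD F and 656 TPM in CD M. Ctss, a lysosomal protease that cuts the invariant chain, followed with 223 to 278 TPM, and Lyz2, the lysozyme of myeloid cells, with 67.7 to 81.0 TPM. Lyz2 shares much of its sequence with Lyz1 of Paneth cells, and reads could be divided between them.

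Among the resident-type genes, group means in TPM ranged from 15.4 to 19.99 for Mertk, a receptor for dying cells, from 9.73 to 13.4 for Mrc1, the mannose receptor, and from 8.99 to 12.1 for the scavenger receptor Stab1. They were lower for Cd163, the hemoglobin scavenger (2.47 to 4.08 TPM), for the folate receptor Folr2 (2.20 to 4.92 TPM) and for the fractalkine receptor Cx3cr1 (1.41 to 2.20 TPM). Timd4, which encodes TIM-4, had only 0 to 22 counts per library. Among the monocyte-type genes, Cd14, a coreceptor for lipopolysaccharide, had 10.7 to 14.9 TPM, Ccr2 1.83 to 2.66 TPM and Itgam, the integrin CD11b, 1.28 to 2.13 TPM. Resident-type and monocyte-type genes were thus found at overlapping levels.

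Of the pan-macrophage genes other than Ctss, the pore-forming Mpeg1 had group means of 6.25 to 8.44 TPM, the lysosomal Laptm5 5.80 to 6.91, Cd68 3.97 to 6.62, Adgre1 3.53 to 4.70 and the actin-bundling Aif1 2.71 to 3.66 TPM. Tyrobp and Fcer1g, which encode the ITAM adaptors that pass on the signals of TREM2 and of Fc receptors, had 9.05 to 11.4 and 5.61 to 7.58 TPM. The Fc receptors had 5.13 to 6.46 TPM for Fcgr3, which signals through Fcer1g, 4.03 to 6.30 TPM for the inhibitory Fcgr2b and 0.338 to 0.462 TPM for the high-affinity Fcgr1. Fcgr3 and Fcgr2b are close in sequence, and reads could be divided between them.

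Csf1r had 7.72 to 9.71 TPM and Spi1 1.09 to 1.72 TPM. Itgax, the integrin CD11c, had 1.54 to 2.66 TPM and the costimulatory Cd86 1.08 to 1.29 TPM. Of the scavenger and lipid-associated genes other than Lgals3, Gpnmb had 1.06 to 3.07 TPM, the scavenger receptor Msr1 1.15 to 1.64 TPM and Trem2, a lipid receptor, 0.220 to 0.711 TPM. Spp1, which encodes osteopontin, had 10 counts at most and no count in 6 of 30 libraries, and it passed the filter on low counts in no comparison.

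**Figure D1:**
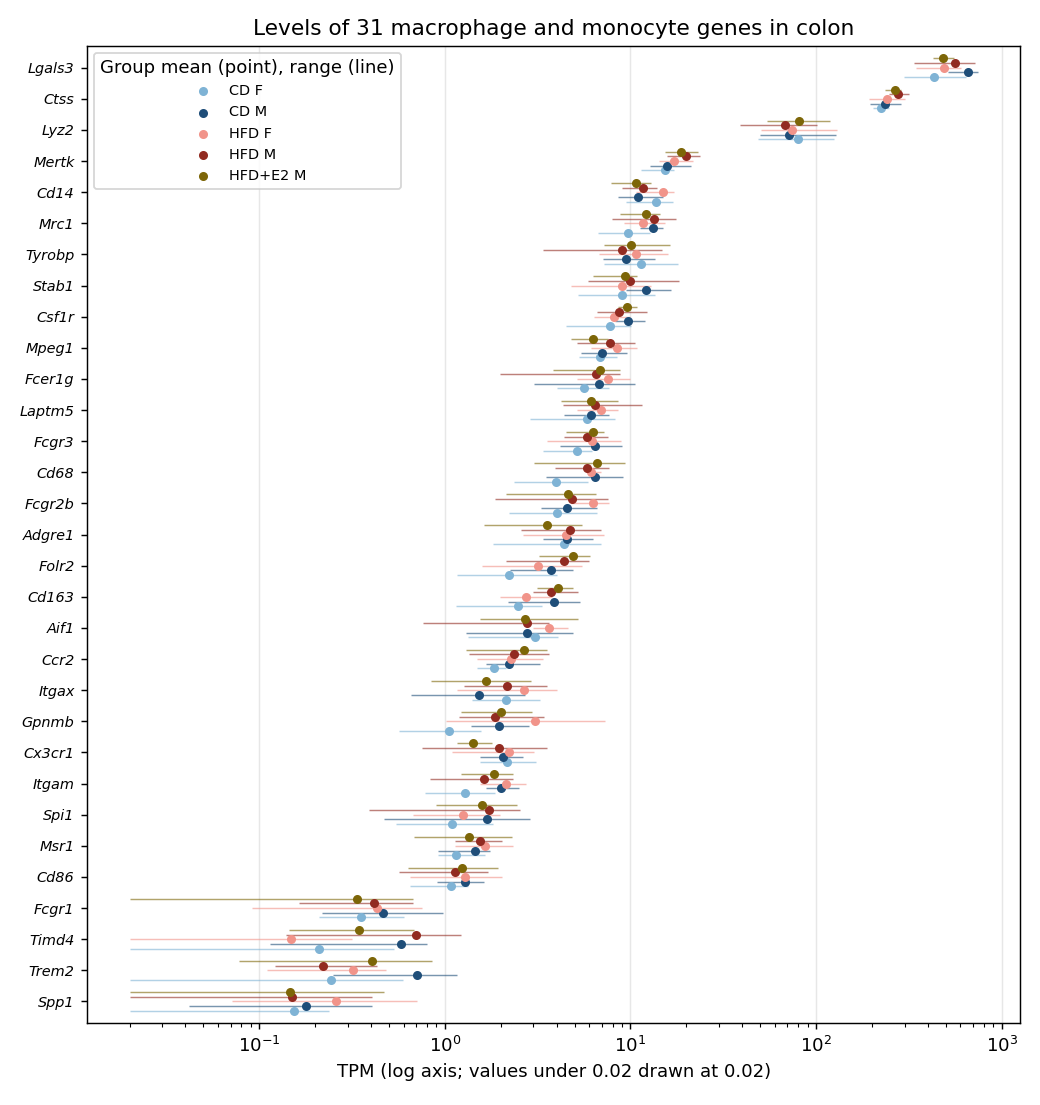
Mean TPM per group (points) with the range over 6 libraries (lines) for each of the 31 genes, on a log axis. Lgals3, Ctss and Lyz2 lay over 50 TPM, while Fcgr1, Timd4, Trem2 and Spp1 lay under 1 TPM.

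Adgre1, the gene of F4/80 (chr17:57358686-57483529, plus strand), was compared first. In CPM (counts scaled to the library total), its lowest, median and highest value was 7.25, 10.4 and 16.6 in CD F and 8.27, 11.2 and 13.6 in CD M. It was 8.15, 10.5 and 16.1 in HFD F, 7.02, 11.2 and 15.6 in HFD M and 4.90, 10.6 and 13.0 in HFD+E2 M. All 5 groups overlapped over most of their range. The log2 fold change with its 95% interval was -0.07 (-0.51 to 0.37) for HFD F against CD F, 0.02 (-0.37 to 0.40) for HFD M against CD M and -0.16 (-0.62 to 0.30) for HFD+E2 M against HFD M. Between females and males it was 0.07 (-0.33 to 0.47) on CD and -0.02 (-0.44 to 0.40) on HFD. No call was made, and the intervals leave room for changes in the transcript of up to about 0.62 on the log2 scale.

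Genes were called in 2 ways with edgeR's quasi-likelihood test fitted over all genes past its filter on low counts: by a Benjamini-Hochberg adjusted p-value under 0.05, or by the threshold of the study, read as an unadjusted p-value below 0.05 together with an absolute log2 fold change above 0.4. By the adjusted p-value none of the 31 genes was called in any comparison. The share of all tested genes called this way was 2.92% for CD F against CD M, 0.0988% for HFD F against HFD M, 0.0199% for HFD F against CD F, 0% for HFD M against CD M, 0.00666% for HFD+E2 M against HFD M and 0% for the interaction of sex and diet. At an unadjusted p-value under 0.05, the same edgeR fits held 11, 3, 3, 2, 3 and 3 of the genes tested in that order, beside 14.8%, 5.09%, 5.68%, 6.03%, 10.2% and 6.75% of all genes, and DESeq2 called 3 (Gpnmb, Lgals3 and Cd14) by its adjusted p-value on CD and 0 in each of the others. Calls of the 31 genes named from here on are by the threshold of the study unless stated otherwise. In the main edgeR fits they did not survive adjustment over all genes.

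**Figure D2:**
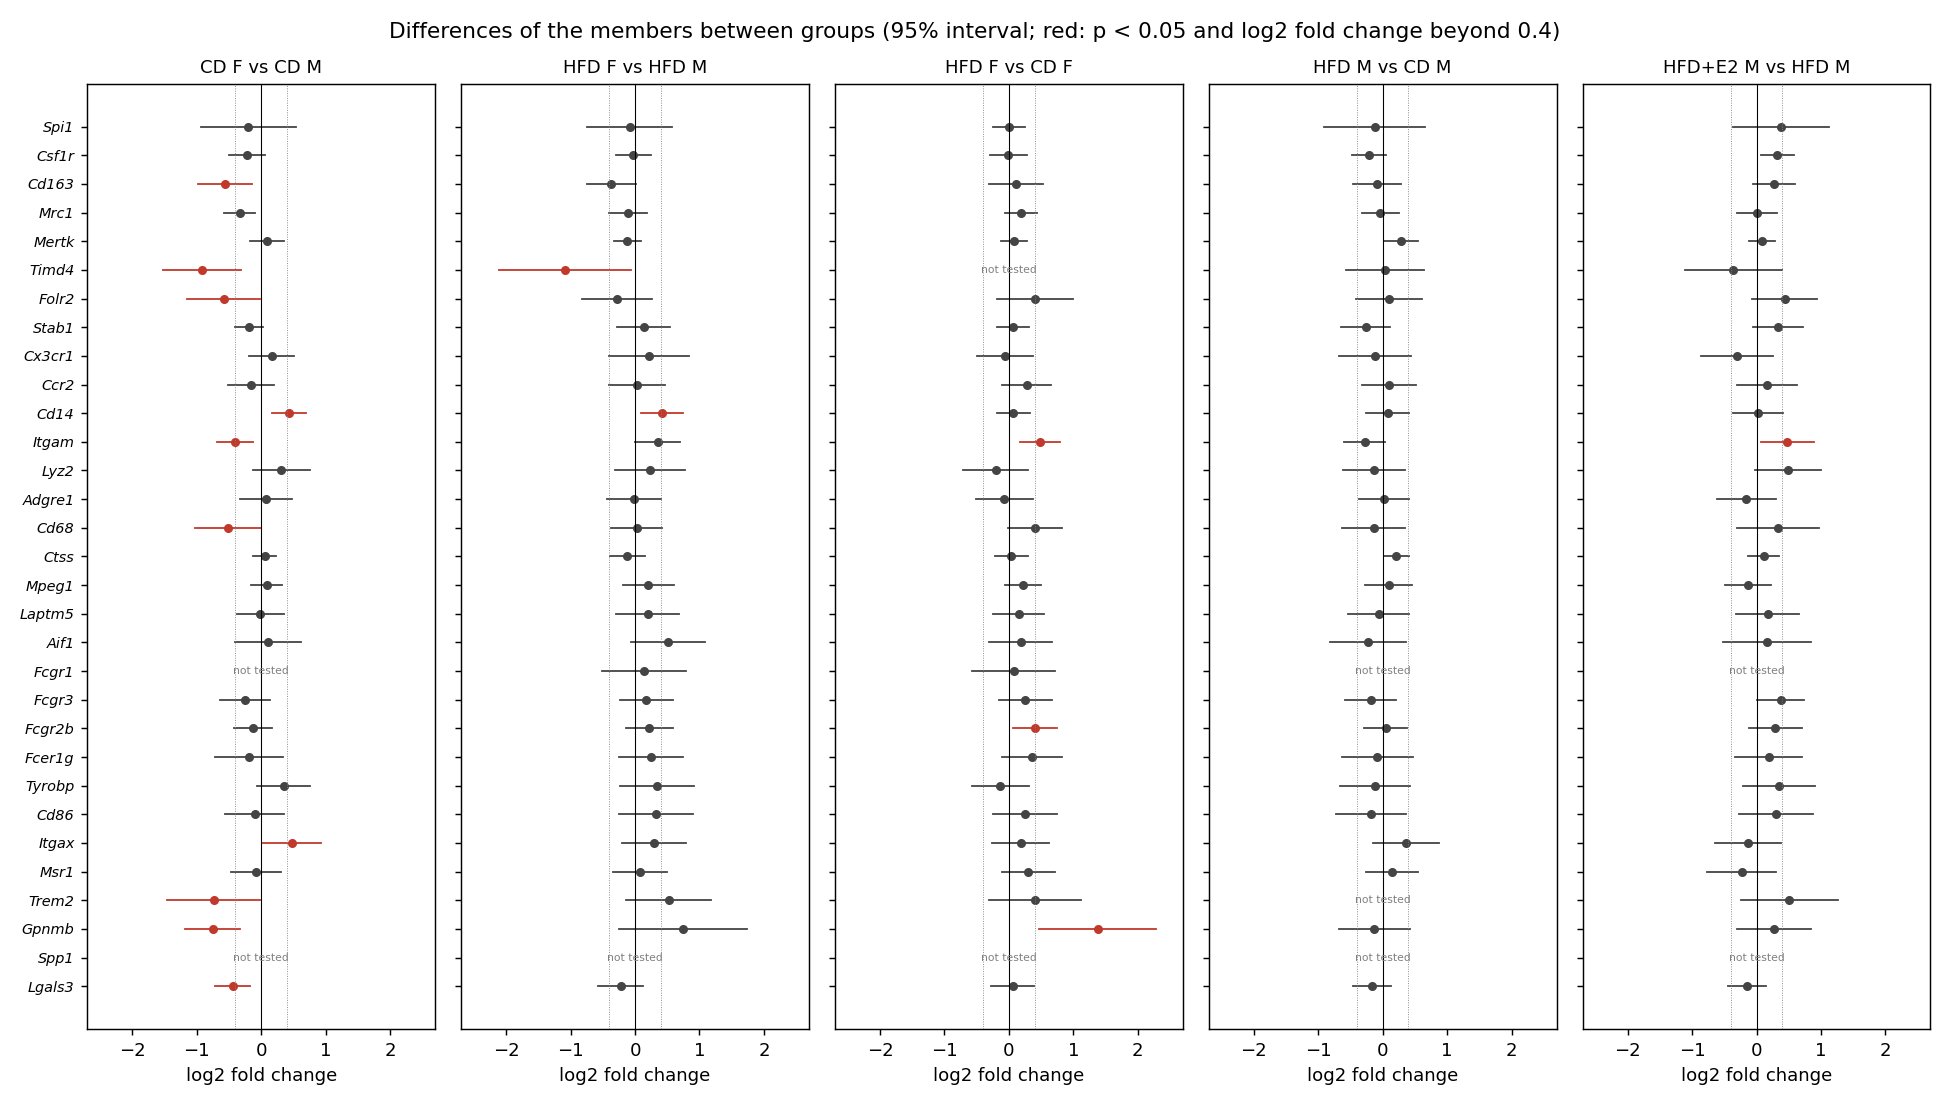
Log2 fold change (points) with 95% interval (lines) of each gene in the 5 comparisons of 6 against 6 libraries, in the order of their roles. Red marks genes past the threshold of the study, 10 of 29 tested in CD F against CD M and at most 3 in the others.

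On CD, 10 of the 29 genes tested differed between females and males at this threshold, 8 lower and 2 higher in CD F, while 9.15% of all genes tested were called, 6.21% lower and 2.94% higher. The lower genes were 3 of 7 resident-type genes (Timd4, Folr2 and Cd163), 3 scavenger and lipid-associated genes (Gpnmb, Trem2 and Lgals3), Itgam and Cd68. Cd14 and Itgax were higher. The median log2 fold change of the 29 genes was -0.15, beside 0.01 over all genes tested.

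Gpnmb, a transmembrane glycoprotein of lipid-laden and lysosome-rich cells (chr6:49036518-49058182, plus strand), had a lowest, median and highest value of 2.47, 3.46 and 4.50 CPM in CD F and 4.19, 5.39 and 8.29 CPM in CD M. The females lay lower, with an overlap between 4.19 and 4.50 CPM, and the log2 fold change was -0.75 ± 0.20 (SE, adjusted p = 0.0570 with edgeR). Timd4 had 0.394, 0.523 and 1.09 CPM in CD F and 0.970, 1.18 and 1.41 CPM in CD M, and its log2 fold change was -0.93 ± 0.29 (adjusted p = 0.101 with edgeR). Only 4 to 20 counts per library stood behind these Timd4 values. Trem2, with 0.298, 0.646 and 1.26 CPM in CD F and 0.797, 1.27 and 1.94 CPM in CD M, had a log2 fold change of -0.74 ± 0.34 (adjusted p = 0.327 with edgeR) on 3 to 23 counts.

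Among the other genes that were lower in CD F, the log2 fold change was -0.58 ± 0.27 for Folr2, -0.56 ± 0.20 for Cd163, -0.51 ± 0.24 for Cd68, -0.44 ± 0.13 for Lgals3 and -0.41 ± 0.13 for Itgam, with adjusted p-values from edgeR between 0.0832 and 0.334. Mrc1, also resident-type, missed the minimum with a log2 fold change of -0.33. The other resident-type genes lay on both sides of 0, with -0.20 for Stab1, 0.09 for Mertk and 0.16 for Cx3cr1. Of the 7 resident-type genes, 5 thus lay below 0 and 2 above.

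Cd14 ran the other way. Its lowest, median and highest value was 14.2, 17.0 and 20.9 CPM in CD F and 10.4, 12.4 and 15.6 CPM in CD M, so that the upper males overlapped the lower females. Its log2 fold change was 0.43 ± 0.12 (adjusted p = 0.0800 with edgeR). For Itgax, with 5.21, 7.41 and 10.3 CPM in CD F and 3.51, 5.20 and 7.97 CPM in CD M, it was 0.48 ± 0.22 (adjusted p = 0.310 with edgeR). The monocyte-type genes were divided, with Cd14 higher and Itgam lower in CD F, and values of -0.15 for Ccr2 and 0.31 for Lyz2 that were not called.

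Markers of other cells moved with this comparison. The 10 smooth muscle genes summed to 2635 to 4089 TPM in CD F and to 4147 to 6888 TPM in CD M, without overlap, and 10 of 10 were lower in CD F at the threshold of the study, 6 of them also by the adjusted p-value. The 12 B cell genes summed to 18.1 to 81.2 TPM in CD F and to 1.75 to 66.5 TPM in CD M, and 5 of 12 were higher in CD F. With the smooth muscle score of each library as a covariate, none of the 10 genes remained past the threshold, and 3 others were called (Ccr2, Csf1r and Mrc1, all lower in CD F), while 14.3% of all genes were called in that fit. The log2 fold change then changed from -0.51 to 0.21 for Cd68, from -0.56 to -0.16 for Cd163 and from -0.75 to -0.51 for Gpnmb. With the B cell score as a covariate, 2 of the 10 (Gpnmb and Timd4) remained, while 5.91% of all genes were called. Since these scores differ between the groups themselves, tissue makeup and sex cannot be told apart here.

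**Figure D3:**
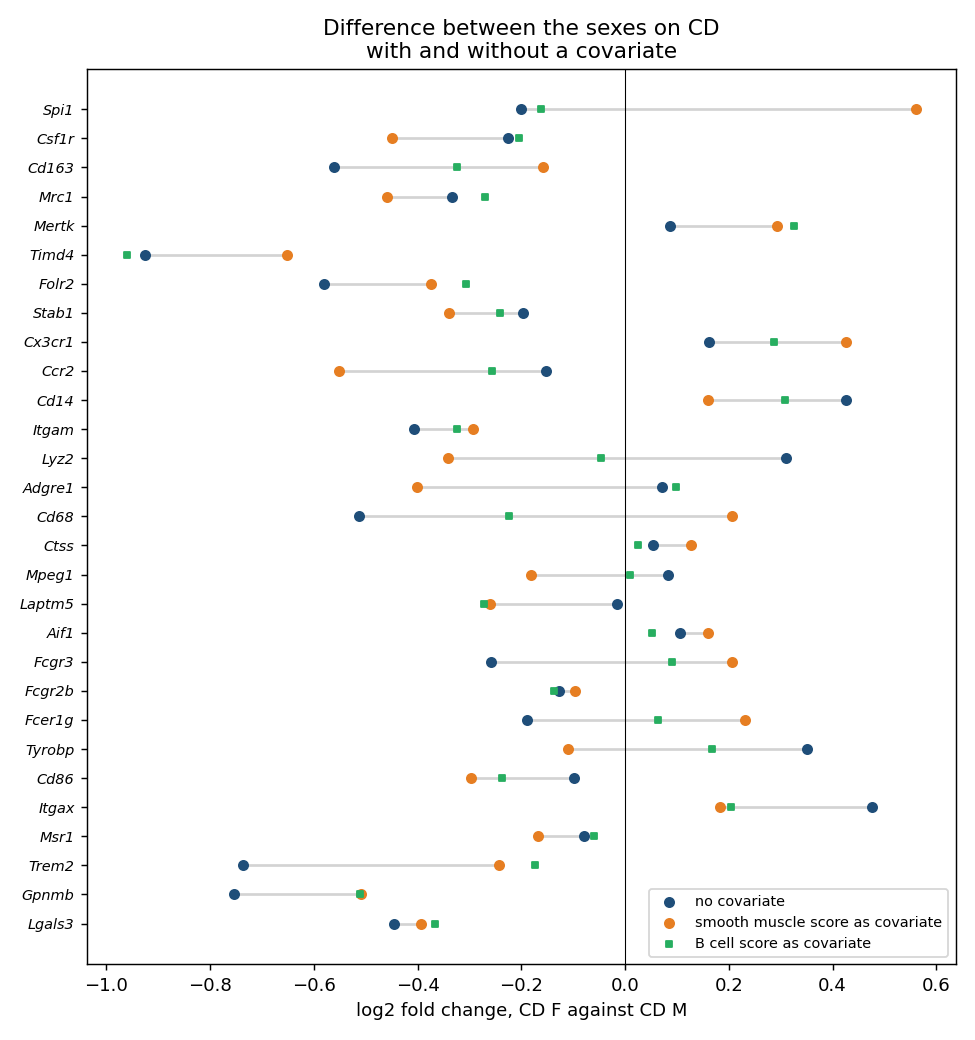
Log2 fold change of CD F against CD M for the 29 genes tested, without a covariate (blue), with the smooth muscle score (orange) and with the B cell score (green squares). Cd68 moved from -0.51 to 0.21 with the smooth muscle score. Without a covariate 19 of 29 genes lay below 0, and with this score 19 of 29 did. These were not all the same genes, as some changed sign in each direction.

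The count on CD also depended on single libraries. It was 4 without CD F 6, 5 without CD F 1, CD F 5 or CD M 4, and 6 without CD M 2, 3 or 5, and it reached 11 at most.

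On HFD, 2 of 30 genes tested differed between females and males at the threshold of the study, Cd14 and Timd4, while 3.09% of all genes were called, 2.01% higher and 1.08% lower. Both differed in the direction seen on CD, in libraries of other animals. Cd14 had a lowest, median and highest value of 13.8, 17.8 and 20.6 CPM in HFD F and 10.01, 13.1 and 18.0 CPM in HFD M, with a log2 fold change of 0.42 ± 0.16 (adjusted p = 0.872 with edgeR). Timd4 had 0, 0.525 and 1.18 CPM in HFD F and 0.501, 1.18 and 2.03 CPM in HFD M, with a log2 fold change of -1.09 ± 0.49 (adjusted p = 0.872 with edgeR) on 0 to 22 counts. The groups overlapped in both genes.

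Without the 6 squamous-rich libraries, which leaves 2 HFD F and 4 HFD M libraries, the log2 fold change was 0.26 for Cd14 and -0.48 for Timd4, and neither was called. Aif1, Cd163 and Lyz2 were called there, while 2.14% of all genes were. Cd14 lost its call without HFD F 4 or 5 or HFD M 1, 3 or 4, and Timd4 without HFD F 1, 3 or 5 or HFD M 1, 2, 4 or 6. On HFD, 1 of 10 smooth muscle genes was called, and lower in HFD F.

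**Figure D4:**
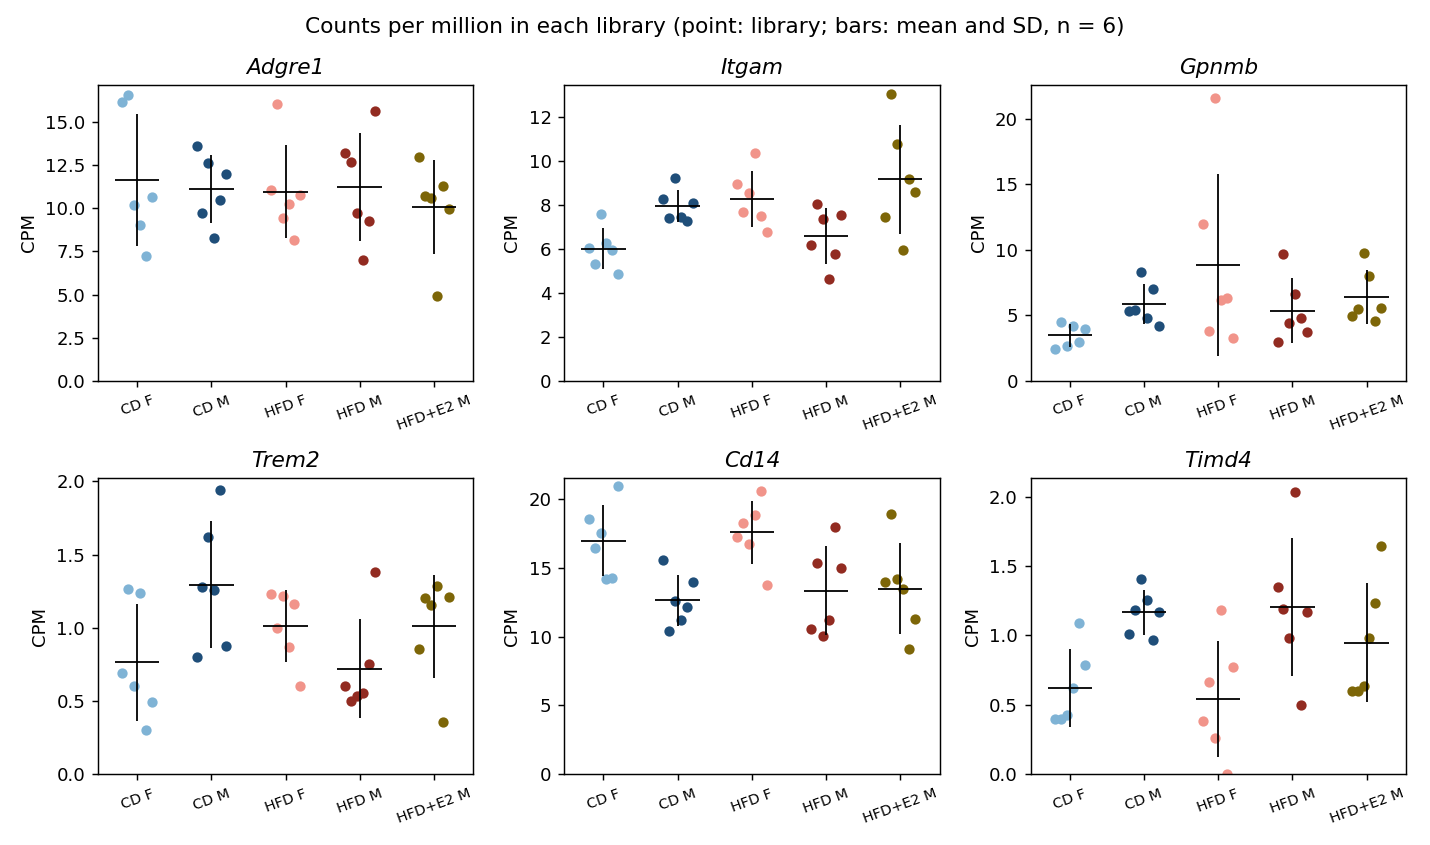
CPM of 6 genes in each of the 30 libraries (points), with the mean and SD of each group (bars, n = 6), on axes that start at 0. Adgre1 overlapped in all 5 groups, Cd14 lay higher and Timd4 lower in the females on both diets, and 2 HFD F libraries held the highest values of Gpnmb, 12.001 and 21.6 CPM.

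In females, 3 of 29 genes tested were higher on HFD at the threshold of the study (Itgam, Gpnmb and Fcgr2b) and none was lower, while 3.67% of all genes were called, 2.95% higher and 0.724% lower. Of the 29, 24 lay above 0, with a median log2 fold change of 0.18 beside 0.00 over all genes. Itgam (chr7:128062640-128128160, plus strand) had 4.84, 5.99 and 7.56 CPM as the lowest, median and highest value in CD F and 6.76, 8.08 and 10.3 CPM in HFD F. All but 1 of the CD F libraries lay below all HFD F libraries, and the log2 fold change was 0.49 ± 0.15 (adjusted p = 0.519 with edgeR). Neutrophils also express Itgam. The 11 neutrophil genes summed to 37.8 to 95.4 TPM (median 50.5) in CD F and to 47.4 to 372 TPM (median 110.4) in HFD F, with overlap. The highest sums, 372 and 206 TPM, were in the squamous-rich HFD F 1 and 3. HFD F 2 and 6, which are not squamous-rich, had 117 and 47.4 TPM. Only 2 of the 11 passed edgeR's filter and 1 of them was called, and higher, by the threshold of the study. DESeq2 called 5 of 11 by that threshold and 3 by its adjusted p-value. Elane, Ngp, Camp and Retnlg were at 0 in both groups. In CD F, S100a8, S100a9 and Mpo were at 0 as well, so that 7 of the 11 added nothing to its sums. The part of neutrophils in the Itgam value was not tested. Fcgr2b had 5.83, 6.86 and 9.36 CPM in CD F and 7.08, 9.12 and 11.97 CPM in HFD F, with overlap and a log2 fold change of 0.40 ± 0.16 (adjusted p = 0.708 with edgeR). This call sat at the minimum fold change and was lost in 7 of 12 fits that left out 1 library (without CD F 1, 2, 4 or 6 or HFD F 1, 4 or 6, values over all 12 from 0.32 to 0.49), with DESeq2 or its size factors, without a filter, with all 30 libraries in one fit and with the replicate block.

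Gpnmb had the largest fold change, 1.38 ± 0.42 on the log2 scale (adjusted p = 0.527 with edgeR). In HFD F it was 12.001 CPM in library 1, 3.83 in library 2, 21.6 in library 3, 6.15 in library 4, 6.30 in library 5 and 3.25 in library 6, against 2.47 to 4.50 CPM in CD F. The 4 libraries above the range of CD F were the 4 squamous-rich ones, and the 2 others lay within it. Without the squamous-rich libraries the log2 fold change was 0.04, and with the squamous score as a covariate -0.08. Without HFD F 3 alone it was 0.88.

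Itgam was not called without the squamous-rich libraries either, where its log2 fold change was 0.27. Fcgr2b was called there with 0.50, joined by Aif1 and Msr1, while 2.36% of all genes were called. The part that the squamous tissue played was not tested beyond these values.

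In males, none of 28 genes tested was called between HFD and CD, while 2.90% of all genes were. DESeq2 called 1 by the threshold of the study, Trem2, which did not pass edgeR's filter. The 2 genes at an unadjusted p-value under 0.05 in edgeR, Mertk and Ctss, lay below the minimum with log2 fold changes of 0.28 and 0.21. Trem2 had 0.797, 1.27 and 1.94 CPM in CD M and 0.496, 0.577 and 1.38 CPM in HFD M, on 5 to 23 counts. Of the 6 HFD M libraries 5 lay below all CD M libraries, and a two-sided permutation test, exact over all splits, gave p = 0.0260 with a difference of -0.73 in mean log2 CPM, where 0.00216 is the smallest p that 6 against 6 libraries allow. Without the squamous-rich libraries Gpnmb was called, and lower on HFD (-0.58). The median log2 fold change of the 28 genes was -0.09 in males, beside -0.01 over all genes.

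Whether the difference between HFD and CD was itself different between the sexes was tested as an interaction over the 24 vehicle libraries. At the threshold of the study it held for 3 of 30 genes tested, Itgam, Gpnmb and Trem2, each with a more positive response in females, while 5.18% of all genes were called, 3.71% with a more positive and 1.47% with a more negative response in females. Itgam had the smallest p-value of the 31 genes, with an interaction of 0.76 ± 0.20 on the log2 scale (adjusted p = 0.397 with edgeR). It rose from a median of 5.99 to 8.08 CPM in females and went from 7.77 to 6.74 CPM in males, where the log2 fold change of -0.28 ± 0.15 was not called. The male libraries held 7.27 to 9.21 CPM on CD and 4.62 to 8.03 CPM on HFD.

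For Itgam the interaction was 0.52 and still called without the squamous-rich libraries, and between 0.67 and 0.83 when any single library was left out. Gpnmb had an interaction of 1.497 ± 0.52 (adjusted p = 0.626 with edgeR) and Trem2 of 1.25 ± 0.47 (adjusted p = 0.653 with edgeR). Without the squamous-rich libraries these were 0.60 and 0.74 and were not called. The smooth muscle genes had a positive interaction in 10 of 10 cases, 3 of them past the threshold, and with their score as a covariate Itgam had 0.78 and was called, while Gpnmb and Trem2, at 1.01 and 1.04, were not called.

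In HFD males, E2 was compared with vehicle. Of 29 genes tested, Itgam was called, and higher, while 5.87% of all genes were called, 2.63% higher and 3.24% lower. It had 5.96, 8.86 and 13.0 CPM as the lowest, median and highest value in HFD+E2 M and 4.62, 6.74 and 8.03 CPM in HFD M. The upper 4 HFD+E2 M libraries lay above all HFD M libraries, and the log2 fold change was 0.48 ± 0.20 (adjusted p = 0.461 with edgeR). The call was lost without HFD M 4 (0.40), HFD+E2 M 2 (0.37) or HFD+E2 M 3 (0.43), and with the B cell score as a covariate (0.38). Without the squamous-rich HFD M 2 and 4 it was lost as well, at 0.46, and Gpnmb was called instead, at 0.72.

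Csf1r, the receptor on which macrophage survival depends, had 31.4, 36.6 and 40.5 CPM in HFD+E2 M and 25.0, 27.6 and 39.7 CPM in HFD M. All but 1 of the HFD M libraries lay below all HFD+E2 M libraries, and the log2 fold change of 0.32 ± 0.12 was under the minimum. Without the library above the others, HFD M 6, it was 0.44, and 6 genes were then called: Csf1r, Folr2, Itgam, Lyz2, Stab1 and Trem2, all higher with E2, while 7.70% of all genes were called, 4.46% higher and 3.23% lower. Csf1r had 0.28 and was not called without the squamous-rich libraries. Fcgr3, with 0.37 ± 0.18, was also under the minimum. Of the 29 genes, 22 lay above 0, with a median log2 fold change of 0.19 beside 0.00 over all genes. The HFD M group is shared with the comparisons of HFD with CD and of the sexes on HFD, so that a low or high HFD M library moves all of them.

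The resident-type and monocyte-type genes were then set against each other in each library, as the mean log2 CPM of the 7 minus that of the 4. The lowest, median and highest difference was -0.93, -0.62 and -0.41 in CD F, -0.67, -0.14 and -0.01 in CD M, -0.91, -0.69 and -0.51 in HFD F, -0.63, -0.29 and 0.21 in HFD M and -0.64, -0.41 and -0.09 in HFD+E2 M. The female groups lay lower than the male groups on both diets, with overlap. The mean difference between females and males was -0.36 on CD, made up of -0.32 in the resident-type and 0.04 in the monocyte-type genes, and -0.48 on HFD, made up of -0.23 and 0.25.

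HFD moved this balance by -0.08 in females and 0.03 in males, which is less than the pooled SD of 0.16 and 0.28. E2 moved it by -0.17 in HFD males, also below the pooled SD of 0.26, with 0.10 in the resident-type and 0.27 in the monocyte-type genes. The sex differences were larger than the pooled SD of 0.22 on CD and 0.23 on HFD. They kept their sign on log2 TPM and without Lyz2 or Cx3cr1, between -0.27 and -0.44 on CD and between -0.40 and -0.63 on HFD. On CD the difference changed sign with the smooth muscle score as a covariate, to 0.083, made up of -0.20 in the resident-type and -0.28 in the monocyte-type genes, and it was -0.12 with the B cell score. On HFD it was -0.44 with either score and -0.38 without the squamous-rich libraries, where the resident-type genes differed by -0.04 and the monocyte-type genes by 0.33. Without these libraries HFD moved the balance by 0.0083 in females and 0.03 in males, and E2 by -0.17. As a score over chosen genes, the balance was not tested.

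**Figure D5:**
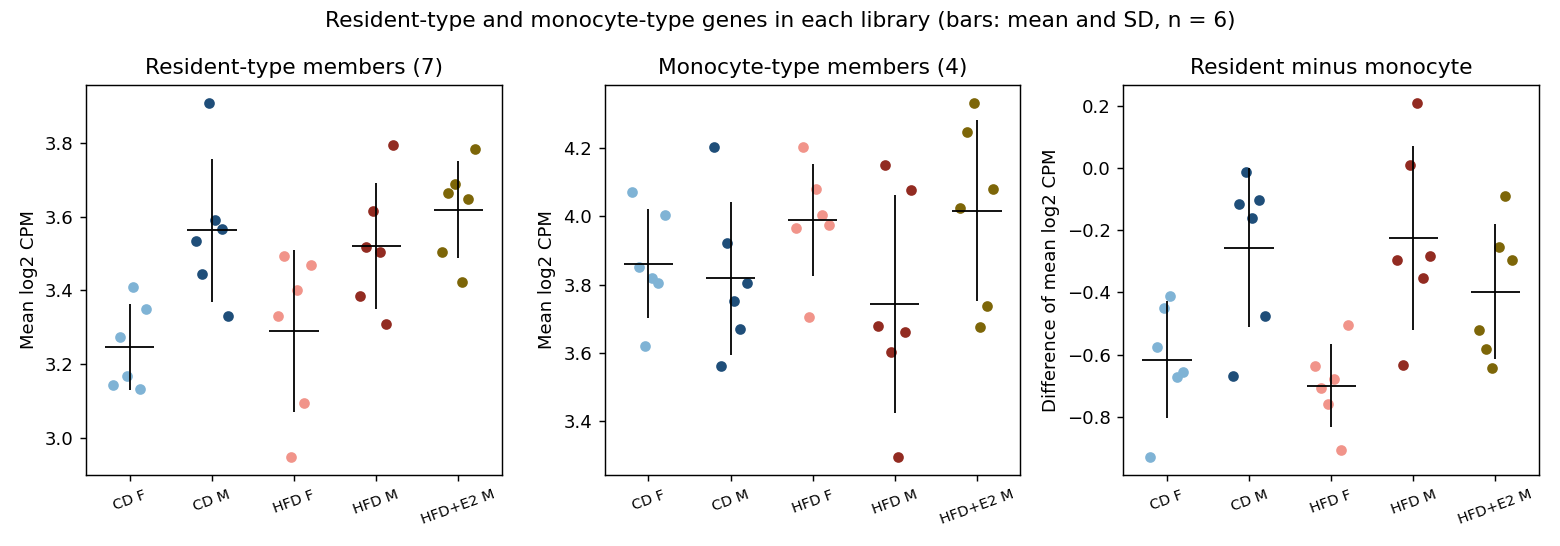
Mean log2 CPM of the 7 resident-type genes, of the 4 monocyte-type genes and the difference between these means in each library, with the mean and SD of each group (bars, n = 6). The difference had a median of -0.62 in CD F and -0.69 in HFD F, against -0.14 in CD M and -0.29 in HFD M, and on CD the mean difference changed sign with the smooth muscle score as a covariate.

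Genes of the same cells can rise and fall together between animals. For 6 pairs, log2 CPM was correlated over the 30 libraries after group means were removed, with permutation within groups and adjustment over the 6 pairs. Adgre1 and Csf1r were correlated, with Pearson's r = 0.61 (permutation p = 0.00127, adjusted 0.00762) and Spearman's rho = 0.58 (permutation p = 0.00243, adjusted 0.0146), and r was 0.62 without the 2 libraries farthest from the median of Adgre1. Cd163 and Folr2 had r = 0.45 (permutation p = 0.0219, adjusted 0.0658) and rho = 0.44, and Trem2 and Gpnmb r = 0.34 (permutation p = 0.0430, adjusted 0.0861) and rho = 0.41, which did not pass the adjustment. Without the squamous-rich libraries (n = 24), Adgre1 and Csf1r had r = 0.58 (permutation p = 0.00853, adjusted 0.0439) and rho = 0.54 (permutation p = 0.0180, adjusted 0.0540), Trem2 and Gpnmb r = 0.54 (permutation p = 0.0146, adjusted 0.0439) and rho = 0.59 (permutation p = 0.00662, adjusted 0.0397), and the adjusted values of the other 4 pairs stayed over 0.05. No correlation was detected between the 2 adaptors Fcer1g and Tyrobp (r = -0.04), between Trem2 and Tyrobp (r = 0.17) or between Ccr2 and Cx3cr1 (r = 0.04). Counts per library were low, at 19 to 75 for Fcer1g, 17 to 84 for Tyrobp and 3 to 23 for Trem2. Fcer1g was not correlated with an Fc receptor here.

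Other genes of the pathway were examined from 3 further lists. Of 12 genes for growth factors and recruitment, 6 or 7 passed the filter in each comparison. On CD, 1 was called by the threshold of the study, beside 9.15% of all genes tested. It was Csf1, the ligand of the CSF1 receptor, lower in CD F (log2 fold change -0.42 ± 0.13). With E2, Csf2ra, a receptor subunit for GM-CSF, was called, and higher (0.73 ± 0.30), but not without the squamous-rich libraries (0.67).

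Of 11 other monocyte genes, Ly6c2, which encodes the surface protein by which inflammatory monocytes are sorted, was called by the adjusted p-value. It had 0.172, 0.572 and 1.03 CPM in CD F, 1.94, 4.14 and 4.97 CPM in HFD F, 0.0703, 0.295 and 0.507 CPM in CD M and 0.268, 0.473 and 1.38 CPM in HFD M. All 6 HFD F libraries lay above all libraries of CD F, CD M and HFD M. For the interaction of sex and diet, none of the 9 genes of this list tested was called by the adjusted p-value (lowest 0.581 with edgeR). For Ly6c2, the log2 fold changes were as follows. It was 2.77 ± 0.32 for HFD F against CD F (adjusted p = 0.00272 with edgeR) and 2.60 ± 0.35 for HFD F against HFD M (adjusted p = 0.00210 with edgeR). Without the squamous-rich libraries it was 2.97 (adjusted p = 0.0358 with edgeR) and 2.58 (adjusted p = 0.172 with edgeR), so that the call against HFD M was lost. In HFD+E2 M, Ly6c2 had 0.601, 1.44 and 3.18 CPM and was called against HFD M only by the threshold of the study (1.35 ± 0.42, and 1.14 without the squamous-rich libraries). Ly6c2 is close in sequence to Ly6c1, which endothelium expresses, and reads could be divided between them. The monocyte-type genes Ccr2, Cd14 and Lyz2 were not called in HFD F against CD F, with log2 fold changes of 0.28, 0.07 and -0.21.

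Fn1, also in the monocyte list and expressed by fibroblasts, was lower in CD F than in CD M (log2 fold change -0.72 ± 0.18, adjusted p = 0.0413 with edgeR). Of 24 other macrophage genes, 20 were tested on CD, where 6 were lower and 1 higher in CD F by the threshold of the study. Of all genes tested, 6.21% were lower and 2.94% higher by that threshold, and 2.92% were called by the adjusted p-value. By the adjusted p-value, 3 were lower: Axl, a receptor for dying cells related to Mertk (-0.52 ± 0.12, adjusted p = 0.0251 with edgeR), the hyaluronan receptor Lyve1 (-0.58 ± 0.13, adjusted p = 0.0283 with edgeR) and the fatty acid transporter Cd36 (-0.62 ± 0.16, adjusted p = 0.0407 with edgeR). In females, HFD was called against CD for genes that included Cd36 (0.60 ± 0.17) and the nitric oxide synthase Nos2 (1.40 ± 0.45), both higher (0.56, still called, and 0.28, not called, without the squamous-rich libraries), and in males for none of the 20 tested by edgeR (1 at an unadjusted p-value under 0.05, and 0 by DESeq2's adjusted p-value). Axl, Lyve1 and Cd36 are also expressed by stromal cells, lymphatic endothelium or adipocytes. The smooth muscle genes were lower in CD F as well, and values of Fn1, Axl, Lyve1 and Cd36 with their score are not reported here.

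With E2 in HFD males, 4 of 20 other macrophage genes tested were higher and 1 lower by the threshold of the study, and none by the adjusted p-value with edgeR (5 at an unadjusted p-value under 0.05, and 1 by DESeq2's adjusted p-value). The higher genes were Siglec1 (0.94 ± 0.24), C1qa (0.74 ± 0.29), C1qb (0.65 ± 0.22) and Nr1h3 (0.45 ± 0.16). C1qa and C1qb encode chains of complement C1q, which resident macrophages secrete, and Siglec1 encodes CD169. Siglec1 (0.83) and C1qb (0.59) were still called without the squamous-rich libraries, and C1qa (0.64) and Nr1h3 (0.37) were not. C1qb ranged from 11.9 to 30.2 CPM with a median of 20.7 in HFD+E2 M and from 7.58 to 16.3 CPM with a median of 14.2 in HFD M. The groups overlapped.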

How the data were processed

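Total RNA of colon tissue was sequenced as paired reads, and the authors trimmed them with Trim Galore, aligned them to GRCm38 with STAR, counted reads per gene with featureCounts and estimated TPM with StringTie, as their methods and the submitters' processing notes state. The deposited count table holds whole read counts for 46078 genes in 30 libraries, and the deposited TPM tables hold TPM per gene (scaled to gene length and library), with no further scaling by the authors that is given in the sources used here. The strand setting of the counting was not given in the sources used here. Groups were taken from the sample labels.

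The 31 genes and the other lists were chosen with earlier results of these data known. All 31 genes were named with their levels. The lowest, median and highest values were given for Adgre1 and for the called genes with the largest fold changes (up to 3 in each direction per comparison), with further genes added after their values were seen (Csf1r, and C1qb of the pathway lists), and pathway genes were named mainly where called, with some results not reported here. CPM was used between libraries and TPM between genes. Counts were tested with edgeR 4.0.16 (filterByExpr, TMM, quasi-likelihood F test, Benjamini-Hochberg adjustment over all genes tested, R 4.3.3), on the 12 libraries of each comparison, or the 24 vehicle libraries for the interaction. DESeq2 1.42.0 and the other settings of the closing section were alternatives, and leaving out squamous-rich libraries (over 100 summed TPM), and marker scores as covariates of the resident and monocyte balance, were added after the data were seen. Log2 CPM used a prior count of 2. Genes that failed the filter were compared by an exact permutation test. The edgeR and DESeq2 scripts were tested on simulated data. Each library is a sample that the labels list separately, and p-values measure the spread between these libraries. Counting error limits precision at low counts, as in Timd4, Trem2, Fcgr1 and Spp1.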

Additional observations from a re-analysis of the deposited data

Results flagged for a closer look

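In 8 of 155 groups of 6 libraries, 1 library stood far from the others of its group by Dixon's test, and chance gives about 1 in 20 such groups. Csf1r had 39.7 CPM in HFD M 6, against 25.0 to 28.8 in the other HFD M libraries, and Trem2 had 1.38 CPM in the same library, against 0.496 to 0.751. Lyz2 had 93.2 CPM in CD M 1, against 43.4 to 56.5, and Fcgr2b had 9.78 CPM there, against 6.89 to 7.86. Adgre1 had 16.1 CPM in HFD F 2, against 8.15 to 11.1, and 4.90 CPM in HFD+E2 M 4, against 9.98 to 13.0. Ccr2 had 4.60 CPM in HFD F 3, against 7.57 to 8.54, and Aif1 2.88 CPM in CD M 4, against 1.28 to 1.83.

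The response to HFD differed between females and males by the interaction term, at the threshold of the study, for Itgam (0.76 on the log2 scale), Gpnmb (1.497) and Trem2 (1.25). None passed adjustment over all genes, with adjusted p-values of 0.397, 0.626 and 0.653 from edgeR.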

How the results depend on the processing

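The number of the 31 genes past the threshold of the study in HFD M against CD M was 0, where Trem2 did not pass the filter, and 2 without a minimum fold change. It was 1 with DESeq2, without a filter and with all 30 libraries in one fit (Trem2). The 1 gene was Lyz2 with the smooth muscle score, and Gpnmb with the squamous score and without squamous-rich libraries. With single libraries left out the number was 0 to 2. Trem2 was called there, and lower on HFD (-0.71 to -1.12), except without CD M 3 or 4, and Stab1 was called without HFD M 6. In CD F against CD M the number was 10, and 3, 2 and 5 with the smooth muscle, B cell and squamous scores, and 4 to 11 with single libraries left out. By the adjusted p-value it was 0 there, 3 with DESeq2, 1 without a filter, and 0 to 2 with single libraries left out. In HFD F against HFD M it was 2, and 1 with at least 10 counts in every library or with the B cell or squamous score, 3 with all 30 libraries in one fit, with the replicate block and without squamous-rich libraries (Aif1, Cd163 and Lyz2 in the last), and 0 to 3 with single libraries left out. With E2 it was 1, and 0 with the B cell score, 2 with DESeq2 or the squamous score, 3 without a minimum fold change, 6 with the smooth muscle score, and 0 to 6 with single libraries left out. It was 3 in HFD F against CD F (2 to 4 with single libraries left out) and 3 for the interaction (3 to 5).

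Adgre1 had small values that changed sign. In HFD F against CD F it was 0.12 with the smooth muscle score, 0.13 with the squamous score and 0.21 without squamous-rich libraries, and -0.21 to 0.060 with single libraries left out. In HFD M against CD M it was -0.24 with the smooth muscle and -0.11 with the B cell score (-0.10 to 0.11). In CD F against CD M it was -0.40 with the smooth muscle score (-0.066 to 0.17). In HFD F against HFD M it was 0.092 with the squamous score and 0.17 without squamous-rich libraries (-0.16 to 0.095). With E2 it was 0.069 with the smooth muscle score. For the interaction it was 0.36, 0.025 and 0.0091 with the smooth muscle, B cell and squamous scores and 0.10 without squamous-rich libraries (-0.24 to 0.038). Gpnmb in HFD F against CD F became -0.083 with the squamous score, and Cd68 in CD F against CD M became 0.21 with the smooth muscle score. The resident minus monocyte difference between CD F and CD M became 0.083 with the smooth muscle score and -0.12 with the B cell score. Beyond the construction of each alternative, the cause was not tested. Of the values of called genes, 328 kept direction and side of the threshold, 110 lost the threshold and 2 reversed.

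The replicate numbers were not used as pairs in the main fits. The lowest correlation of same-numbered libraries was -0.22, and 2 to 5 of 6 pairs were over 0.1. Its median ran from 0.0079 in HFD F against HFD M to 0.25 in CD F against CD M. In CD F against CD M, 4 of 6 libraries correlated best with their own number, and 0 of 6 did in HFD F against CD F. Whether the numbers stand for a shared order or batch was not tested. With the replicate block, 3 genes passed the adjusted p-value in CD F against CD M, 3 were called with E2, and Adgre1 in HFD M against CD M was -0.0095. Of all genes tested in CD F against CD M, 326 were then higher and 615 lower by the adjusted p-value. Without the block these were 116 and 319.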
